A study of Mus musculus with 4 samples.

Results

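The genes described here are 10 non-collagen genes of fibroblasts, pericytes and smooth muscle, chosen by name from the 53465 genes listed in each count file: Dcn, Lum, Fn1, Postn, Acta2, Tagln, Pdgfrb, Rgs5, Thy1 and Twist1. All 10 were listed, and 9 passed the filter on low counts that left 15766 tested genes; Twist1 did not. RNA-Seq was performed on 1° mouse oligodendroglial cells (OGCs) from the forebrain of mice aged 2 to 4 days, which were shaken off mixed glial cultures, depleted of microglia and then differentiated for 3 days in dishes coated with poly-d-lysine and laminin, with CNTF in place of mitogens. There were 2 libraries of ctrl cells (Zfp276 flox/flox) and 2 of Zfp276cko cells (Sox10::Cre tg; Zfp276 flox/flox), each from its own preparation of cells pooled from 3 mice, whose mixed background came from C3H and C57Bl/6J. Both genotypes carry the floxed allele. Cre is expressed from a Sox10 BAC transgene that the methods describe as active in OGCs, and a Rosa26 stopflox tdTomato allele was crossed in to identify Zfp276cko newborns.

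Fibroblasts secrete extracellular matrix, while pericytes and smooth muscle cells, together called mural cells, wrap vessels and control their diameter. In the brain they are found mainly in the meninges and along vessels, and small numbers are carried into glial cultures with the dissected tissue. Dcn (decorin) and Lum (lumican) encode small leucine-rich proteoglycans that bind collagen fibrils, Fn1 encodes fibronectin and Postn the matricellular protein periostin. Acta2 and Tagln encode smooth muscle actin and transgelin of the contractile apparatus. Pdgfrb encodes the PDGF receptor that pericytes need, and Rgs5 a regulator of G protein signalling that marks pericytes. Thy1 encodes a surface protein of fibroblasts that is also found on neurons and T cells, and Twist1 a transcription factor of mesenchymal cells. None of these genes is restricted to fibroblasts and mural cells: fibronectin, for example, is also made by endothelial cells and astrocytes.

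Counted reads per library lay between 21068322 and 26599809. Zfp276 itself had 1648 and 2230 normalized counts (counts scaled to the mean effective library size) in ctrl and 490 and 503 in Zfp276cko cells. The ctrl libraries were not alike: of 14324 genes with a mean of 20 or more normalized counts, 12.4% differed 2-fold or more between them, against 0.272% between the Zfp276cko libraries. Values are therefore given for single libraries, and differences also without a ctrl library where that changed them. Markers of the oligodendroglial lineage also differed between genotypes. The 14 oligodendrocyte markers summed to 376601 and 486563 normalized counts for ctrl and 257235 and 262210 for Zfp276cko, with a median log2 fold change of −0.82. In 12 of the 14 the Zfp276cko values were both under the ctrl values (23.7% of all tested genes). edgeR called 0 of the 14 lower, or 11 with an unadjusted p (3.02% of all tested genes). DESeq2 called 9 lower (2.27% of the genes to which it gave an adjusted p). Of 7 genes listed for OPCs, 6 were under the ctrl values in this way (median −0.77). Of these, 0 were called lower by edgeR and 2 by DESeq2 or an unadjusted p. The 2 called by DESeq2 were Gpr17 and Bcas1. These 2 and Enpp6 also mark cells that have begun to differentiate, so that the list is not of OPCs alone. Pdgfra, which stands in the PDGF list, had 10049 and 15501 normalized counts for ctrl. Both Zfp276cko values (11842 and 11561) lay between these. Its log2 fold change was −0.13 (edgeR adjusted p = 0.837). The part of the marker differences in those of the fibroblast and mural cell genes was not tested. The 10 fibroblast and mural cell genes together summed to 8432 in ctrl replicate 1 and 1335 in ctrl replicate 2, and the Zfp276cko replicates had sums of 948 and 893. Fn1 alone made up 70.6% of this sum in ctrl replicate 1 and between 47.2% and 47.8% in the other libraries. Without Fn1 the sums were 2483, 697, 500 and 466 in the same order.

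The level of these genes differed between the ctrl libraries. All 10 genes were higher in ctrl replicate 1 than in ctrl replicate 2 by more than counting error (exact 95% interval of the ratio above 1), which was the case for 31.0% of all tested genes, while 0 of the 10 were lower by this measure (29.6% of all tested genes). Between the Zfp276cko replicates the interval lay above 1 for 1 of the 10 genes, against 11.5% of all tested genes, and below 1 for 0 (11.7%). Of the 9 tested genes, 7 were at least 2-fold higher in ctrl replicate 1 than in ctrl replicate 2 (7.78% of all tested genes), and 8 had their highest level of all libraries in ctrl replicate 1 (30.7%). The exception was Thy1. Ctrl replicate 2 was the lowest of the 4 libraries for 4 of the 9 (30.8%). These intervals cover counting error only. In RNA from a whole culture, fewer cells of a type and less RNA per cell cannot be told apart.

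**Figure D1:**
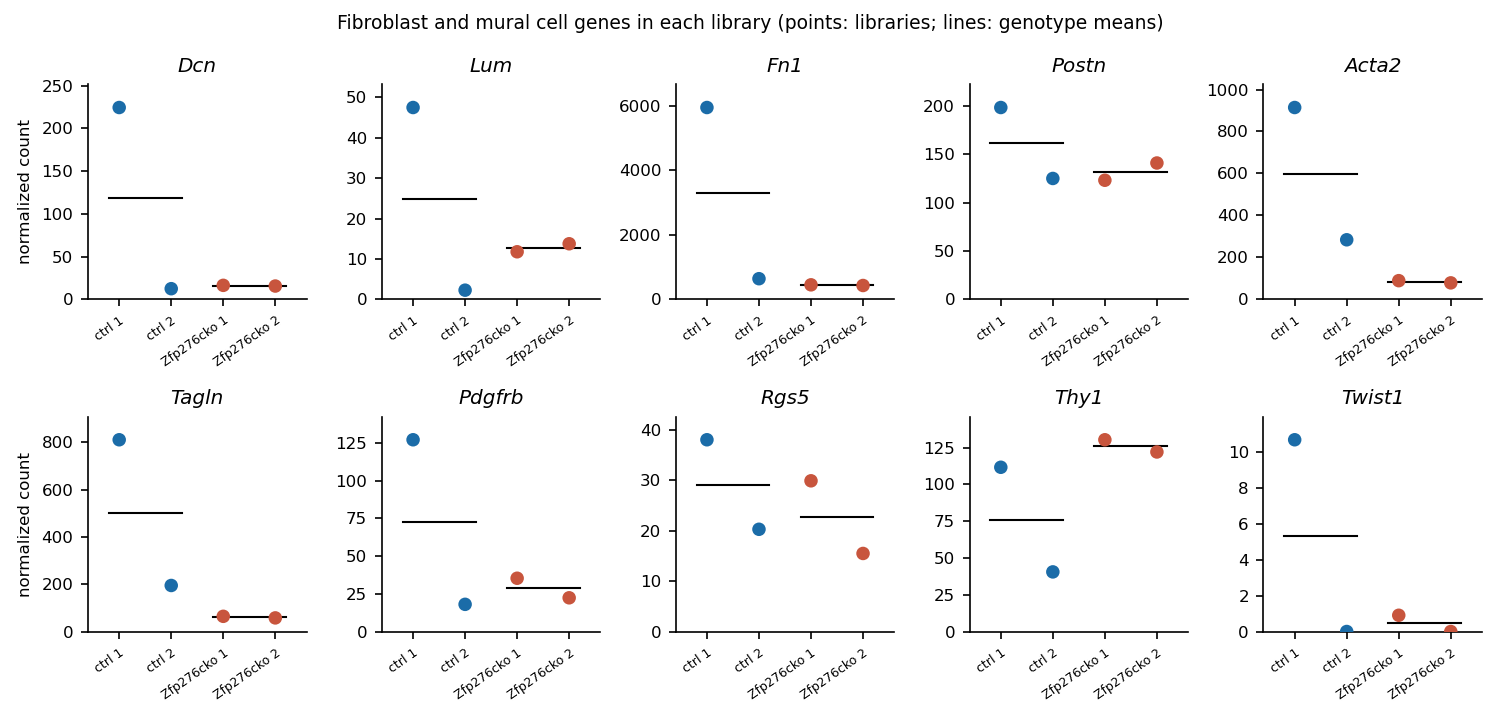
Normalized counts of the 10 genes in each library, with one panel and one linear axis per gene; points are libraries, horizontal lines genotype means. Ctrl replicate 1 is the highest point in all panels but that of Thy1, and the Zfp276cko points of Acta2, Tagln and Fn1 lie below both ctrl points.

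Between genotypes, the quasi-likelihood test of edgeR (p-values adjusted after Benjamini and Hochberg) called none of the 9 tested genes lower or higher in Zfp276cko cells, with calls limited to adjusted p values up to 0.05, log2 fold changes of 0.6 or more in size and means of 20 or more normalized counts. It called 0.0% of all tested genes in either direction. With an unadjusted p and the same other thresholds, 2 of the 9 genes were lower (3.02% of all tested genes) and 0 were higher (5.11%). DESeq2, the tool of the study, called the same number lower (2.27% of the genes to which it gave an adjusted p) and 0 higher (3.02%). These were Acta2 and Tagln under both. For 3 of the 9 genes (Acta2, Tagln and Fn1) the Zfp276cko values were both under the lower ctrl value, as for 23.7% of all tested genes, and for 1 (Thy1) both were over the higher one (26.8%). Compared with ctrl replicate 2 alone, a choice made after seeing the data, 3 genes were lower (42.6% of all tested genes) and 4 higher (44.4%) in both Zfp276cko libraries, and 2 lay to either side of it. The median log2 fold change of the 9 genes was −1.33, beside −0.0013 over all tested genes. Leaving out ctrl replicate 1 gave 0.15 and leaving out ctrl replicate 2 gave −2.16, so that ctrl replicate 1 decided its direction.

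The contractile genes had the smallest p of the 9. Acta2 (smooth muscle actin) lies on chromosome 19 of mm10 (minus strand, 34241090 to 34255590). Its normalized counts were 914 in ctrl replicate 1, 284 in ctrl replicate 2, and 88.7 and 78.2 in the Zfp276cko libraries, which are named in the order of their replicate numbers here and below. The genotypes did not overlap: the lower ctrl library was well above both Zfp276cko libraries, which were close to each other. The ctrl mean was 599 ± 446 (SD, n = 2) and the Zfp276cko mean 83.4 ± 7.42 (SD, n = 2), which is 13.9% of the ctrl mean and 29.4% of the level of ctrl replicate 2. This gave a log2 fold change of −2.84 with a standard error of 0.64 (edgeR adjusted p = 0.186). DESeq2 gave an adjusted p of 4.45e-05, and the other tests on all 4 libraries gave between this value and 0.253. The log2 fold change was −1.76 without ctrl replicate 1.

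Tagln, also on a minus strand (chromosome 9, 45929619 to 45936058), had the same order of libraries as Acta2. Values were 811 and 195 normalized counts for ctrl and 64.2 and 57.6 for Zfp276cko. Transgelin binds actin filaments. Here, too, ctrl replicate 1 was the highest library, ctrl replicate 2 the next, and the Zfp276cko libraries the lowest. The means were 503 ± 436 (SD, n = 2) and 60.9 ± 4.72 (SD, n = 2), or 12.1% of the ctrl mean and 31.3% of the level of ctrl replicate 2. Its log2 fold change was −3.04 ± 0.77 (SE; adjusted p = 0.209 by edgeR, 0.000199 by DESeq2, and up to 0.306 in the other tests on all 4 libraries), and −1.68 without ctrl replicate 1. Counts of Tagln carry a further uncertainty. Of the 101-base windows of its transcripts, the length of the reads, 48.1% stand unchanged on the opposite strand in transcripts of Pcsk7 or of the antisense gene Gm48529, and the strand setting of the counting is not given in the sources used here. Gm48529 overlaps 62.4% of the exon bases of Tagln and Pcsk7 5.43%. Pcsk7 itself had between 1028 and 1133 normalized counts in all libraries, with a log2 fold change of 0.01. The level of Gm48529 was not examined. No window of Acta2 was shared with another gene.

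Both genes are textbook targets of serum response factor, which binds the CArG box, a sequence of 10 bases with CC at its start, GG at its end and 6 bases of A or T between them. This pattern is its own reverse complement, so that 1 search covers both strands. Promoter sequences of RefSeq (GRCm38.p6) were matched for 4 of the 10 genes, Acta2, Postn, Rgs5 and Twist1. In the 250 bases before the start of these genes there was no such box, which 1.47% of all 32851 promoter entries hold. After this result the search was widened to boxes with 1 G or C in the middle. These were found at 2 places in the promoter of Acta2 and in none of the other 3 genes. At least 1 such box was held by 8.59% of all entries, and at least 2 by 0.670%. The boxes of Acta2 are shown because Acta2 and Tagln were the members called by DESeq2, with the box in capitals and 10 bases on either side. The first, at chr19:34255438-34255467, begins 84 bases before the RefSeq start and the second, at chr19:34255388-34255417, begins 34 bases before it. Both are written 5′ to 3′ on the minus strand. In GENCODE M21 a transcript of Acta2 starts further upstream, and its first exon holds both boxes.
Acta2 box 1: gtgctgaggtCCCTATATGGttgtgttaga
Acta2 box 2: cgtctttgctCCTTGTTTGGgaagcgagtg
A match of letters is a description, and whether these sites are bound was not tested. Srf, which encodes serum response factor, had a log2 fold change of −0.47 ± 0.13 (SE, edgeR adjusted p = 0.229). Its cofactor Myocd had at most 1 count in any library. The cofactors Mkl1 and Mkl2 were well counted, with 936 and 830 normalized counts of Mkl1 for ctrl and 1004 and 955 for Zfp276cko. Mkl2 had 912 and 937 against 1179 and 1145. Their log2 fold changes were 0.15 and 0.33 (edgeR adjusted p = 0.582 and 0.237). All of these genes are named for this role.

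The list of 22 other genes of the contractile apparatus and its regulators had a median log2 fold change of −0.32 over the 17 tested. None was called by edgeR in either direction (2 lower and 2 higher with an unadjusted p, against 3.02% and 5.11% of all tested genes). Of the 17, 9 had both Zfp276cko values under and 4 had both over the ctrl values (23.7% and 26.8% of all tested genes). The median was −0.29 or −0.19 when ctrl replicate 1 or 2 was left out. Cnn1 (calponin) had 97.4 and 24.8 normalized counts for ctrl and 17.2 and 11.2 for Zfp276cko, which is the order of libraries seen for Acta2 and Tagln. Its log2 fold change was −2.10 ± 0.78 (SE; adjusted p = 0.325). Myl9, a myosin light chain, showed the same order with 217 and 83.3 against 57.9 and 51.5 normalized counts (log2 fold change −1.45, adjusted p = 0.318). The tropomyosins went apart, with −0.63 for Tpm1 and 0.85 for Tpm2 (adjusted p = 0.312 and 0.240). Actg2, the other smooth muscle actin, did not pass the filter and is named for its call alone, after its values were known. Ctrl had 95 and 6 counts of it and Zfp276cko 1 and 3. Actg2 was the one gene of this list that DESeq2 called (lower, adjusted p = 0.0150). DESeq2 called 2.27% lower and 3.02% higher of the genes to which it gave an adjusted p.

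Among the 4 matrix genes of the 10, Fn1 (chromosome 1, minus strand, 71585520 to 71653200) was the most abundant. It had 5949 normalized counts in ctrl replicate 1 but 638 in ctrl replicate 2, and 448 and 427 in Zfp276cko cells. Ctrl replicate 1 stood apart, and ctrl replicate 2 was nearer to the Zfp276cko libraries than to the other ctrl library. The ratio of the ctrl replicates was 9.32 (exact 95% interval 8.55 to 10.2). Between genotypes the log2 fold change was −2.91 ± 1.10 (SE; adjusted p = 0.330), and −0.54 without ctrl replicate 1. The genotypes differed by less than the ctrl replicates did. Of the windows of Fn1, 1.20% are shared with the antisense gene Apol7d, which had at most 1 count per library.

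Dcn and Lum are neighbours on the plus strand of chromosome 10, at 97479609 to 97518143 and 97565128 to 97572703, with 46984 bp between them. Dcn had 224 and 12.4 normalized counts for ctrl and 16.3 and 15.5 for Zfp276cko. Ctrl replicate 1 stood alone, and the other 3 libraries had between 11 and 18 counts as deposited. Its log2 fold change of −2.89 ± 1.37 (SE; adjusted p = 0.408) became 0.36 without ctrl replicate 1. Lum had 40 and 2 counts for ctrl and 13 and 16 for Zfp276cko, so that both Zfp276cko libraries lay between the ctrl libraries. Its log2 fold change was −0.95 ± 1.23 (SE; adjusted p = 0.758), and 2.45 without ctrl replicate 1. The ratio of the ctrl replicates was 18.1 for Dcn (interval 9.90 to 36.9) and 21.1 for Lum (5.47 to 180). The latter rests on 2 counts in ctrl replicate 2.

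Postn (chromosome 3, plus strand, 54361109 to 54391037) did not share this pattern. It had 198 and 125 normalized counts for ctrl and 123 and 141 for Zfp276cko, with overlapping genotypes. The ratio of the ctrl replicates was 1.59 (interval 1.24 to 2.04). A log2 fold change of −0.29 ± 0.31 (SE; adjusted p = 0.697) was 0.08 without ctrl replicate 1.

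Of the 28 other non-collagen matrix genes on the list, 22 were tested, with a median log2 fold change of −0.50 that became 0.36 without ctrl replicate 1 and was further below 0 without ctrl replicate 2. None was called by edgeR in either direction (0 lower and 2 higher with an unadjusted p, against 3.02% and 5.11% of all tested genes). Both Zfp276cko values were under the ctrl values for 4 of the 22 and over for 5 (23.7% and 26.8%). At least 2-fold higher in ctrl replicate 1 than in ctrl replicate 2 were 13 of the 22 (7.78%). Fbln2 (fibulin 2) had 805 normalized counts in ctrl replicate 1 and 25.9, 25.3 and 24.1 in the other libraries. Loxl2, an enzyme that cross-links collagen, had 278 against 18.0, 10.9 and 24.9, and the calcification inhibitor Mgp had 145 against 7.88, 25.3 and 15.5. These 3 genes, like Dcn, were high in ctrl replicate 1 alone.

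Lox, which encodes lysyl oxidase, another enzyme that cross-links collagen and elastin, went the other way. Ctrl had 1808 and 2602 normalized counts, Zfp276cko 14305 and 14859. Zfp276cko values were far over both ctrl values, and the ctrl library with more Dcn and Fn1 was the one with less Lox. Lox had a log2 fold change of 2.73 ± 0.22 (SE; adjusted p = 0.0962 by edgeR, 9.58e-28 by DESeq2), and 2.49 or 3.00 when ctrl replicate 1 or 2 was left out. DESeq2 called 2 genes of this list higher, Lox and Mfap2 (log2 fold change 0.84, adjusted p = 0.139 from edgeR), and 0 lower. Such calls were made for 3.02% and 2.27% of the genes to which DESeq2 gave an adjusted p. Mfap2, a protein of microfibrils, was singled out for this call.

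Pdgfrb (chromosome 18, plus strand, 61045150 to 61085061) had 127 and 18.0 normalized counts for ctrl and 35.3 and 22.3 for Zfp276cko. Both Zfp276cko libraries lay between the ctrl libraries, as for Lum. The ratio of the ctrl replicates was 7.06 (interval 4.15 to 12.8). Between genotypes the difference was −1.33 on the log2 scale (standard error 0.97, adjusted p = 0.571), and 0.67 without ctrl replicate 1. Rgs5 (chromosome 1, plus strand, 169655501 to 169695813) had 32 and 18 counts for ctrl and 33 and 18 for Zfp276cko, with overlapping genotypes. Its spread was as large within the Zfp276cko genotype (ratio 1.93, interval 1.06 to 3.64) as within ctrl (1.88, 1.02 to 3.55), and it was the one gene of the 10 whose Zfp276cko replicates differed by more than counting error. Its log2 fold change was −0.36 ± 0.53 (SE; adjusted p = 0.790).

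Other genes of pericytes were in part high in ctrl replicate 1 as well. Of the 8 tested, 5 were highest there (30.7% of all tested genes), with a median log2 ratio over ctrl replicate 2 of 0.94. At least 2-fold higher there than in ctrl replicate 2 were 4 (Anpep, Cd248, Ndufa4l2 and P2ry14; 7.78% of all tested genes). Anpep, an aminopeptidase that is also found on other cells, had 856 and 190 normalized counts for ctrl and 509 and 496 for Zfp276cko, and the surface protein Cd248 had 41.6 and 11.3 against 7.24 and 15.5. Angpt1, a ligand of the endothelial receptor Tek, was lowest in ctrl replicate 1, with 36.8 normalized counts against 120 in ctrl replicate 2 and 81.4 and 84.2 for Zfp276cko. These genes are named to complete the list. Of the 15 listed, 5 had at most 3 counts in every library, among them Abcc9, Vtn and Higd1b, and Kcnj8 had at most 4. Higd1b had 0 counts in all libraries, which allows up to 3 counts in each. Over the 8 tested pericyte genes the median difference was −0.18 on the log2 scale, with 0 called by edgeR or DESeq2 in either direction. With an unadjusted p, 1 was lower and 0 higher (3.02% and 5.11% of all tested genes). In both Zfp276cko libraries 2 were under and 0 over the ctrl values (23.7% and 26.8%). P2ry14, a nucleotide sugar receptor, had 98.5 and 1.13 normalized counts for ctrl and 17.2 and 20.6 for Zfp276cko (adjusted p = 0.714). Rgs4, Mcam and Notch3, which are not restricted to pericytes, had log2 fold changes of −1.05, −0.30 and 0.07 (adjusted p between 0.241 and 0.923). The list thus held genes at or near 0 beside genes that were clearly counted, and the cells that contributed the counts of Pdgfrb and Rgs5 were not determined.

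For the ligands of PDGF receptors, Pdgfa and Pdgfb lay apart. Pdgfa, a ligand of the receptor alpha of OPCs, had 2565 and 2432 normalized counts for ctrl and 1150 and 1109 for Zfp276cko. The ctrl replicates were close to each other here, and the genotypes did not overlap. Pdgfa had a log2 fold change of −1.14 ± 0.09 (SE; adjusted p = 0.0962 by edgeR, 6.11e-11 by DESeq2, which called it lower), and −1.11 without ctrl replicate 1. Pdgfb, a ligand of Pdgfrb, had 80.7 and 138 against 243 and 212 normalized counts (log2 fold change 1.05, adjusted p = 0.272), and its genotypes did not overlap either. Pdgfc and Pdgfra had −0.33 and −0.13 (adjusted p = 0.587 and 0.837). Of this list of 5 genes, edgeR called 0 in either direction (1 lower and 1 higher with an unadjusted p, against 3.02% and 5.11% of all tested genes).

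Thy1 (chromosome 9, plus strand, 44043384 to 44048579) was the one gene of the 10 whose Zfp276cko values were both above the ctrl values. It had 112 and 40.5 normalized counts for ctrl and 130 and 122 for Zfp276cko. Ctrl replicate 2 was low, while ctrl replicate 1 was close to the Zfp276cko libraries. Means were 76.1 ± 50.3 (SD, n = 2) and 126 ± 5.87 (SD, n = 2). This is a log2 fold change of 0.73 ± 0.53 (SE; adjusted p = 0.568), and 1.64 or 0.16 when ctrl replicate 1 or 2 was left out, so that its size rested on ctrl replicate 2. The 11 neuronal markers together summed to 1401 in ctrl replicate 1 and to 6624 in ctrl replicate 2, where Thy1 was lowest and this sum highest. For the Zfp276cko libraries the sums were 4338 and 4274. Which cells contributed the counts of Thy1 was not tested.

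Twist1 (chromosome 12, plus strand, 33957671 to 33959829) had 9 and 0 counts for ctrl and 1 and 0 for Zfp276cko. It was not tested, and no fold between genotypes is given at this depth. Its relative Twist2 was counted in ctrl replicate 1 alone, with 6 counts there and 0 in the other 3 libraries. Of the list of 23 genes of mesenchymal and meningeal cells, 6 had at most 3 counts in every library. Tbx15 had 35 counts in ctrl replicate 1 and 1, 4 and 1 in the others, Tbx18 had 46 against 4, 4 and 3, and Foxf2 had 12 against 0, 2 and 0. These transcription factors of meningeal and mural cells were picked with their values in view, did not pass the filter, and do not stand for the list. Of its 9 tested genes 3 were highest in ctrl replicate 1 (30.7% of all tested genes), and the median log2 ratio of ctrl replicates 1 and 2 was −0.23. Prrx1, Snai1, Snai2, Islr and Cdh11 were higher in ctrl replicate 2.

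The 9 tested genes of this list had a median log2 fold change of −0.06 (0.70 without ctrl replicate 1), with 0 called by edgeR in either direction. With an unadjusted p, 0 were lower and 3 higher (3.02% and 5.11% of all tested genes). In both Zfp276cko libraries 3 were under and 3 over the ctrl values (23.7% and 26.8%). S100a4, a calcium-binding protein of fibroblasts and macrophages, had 160 normalized counts in ctrl replicate 1 and 37.1, 19.9 and 27.5 in the others (log2 fold change −2.05, adjusted p = 0.337). Islr, a matrix-associated protein of mesenchymal cells, had 173 and 290 for ctrl and 865 and 679 for Zfp276cko (log2 fold change 1.73, standard error 0.31, adjusted p = 0.158 from edgeR), and DESeq2 called it higher (adjusted p = 3.92e-05). The repressors Snai1 and Snai2, known from epithelial to mesenchymal transition, had log2 fold changes of 1.43 and 1.24 (adjusted p = 0.265 and 0.205). For both, all Zfp276cko values lay above the ctrl values.

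**Figure D2:**
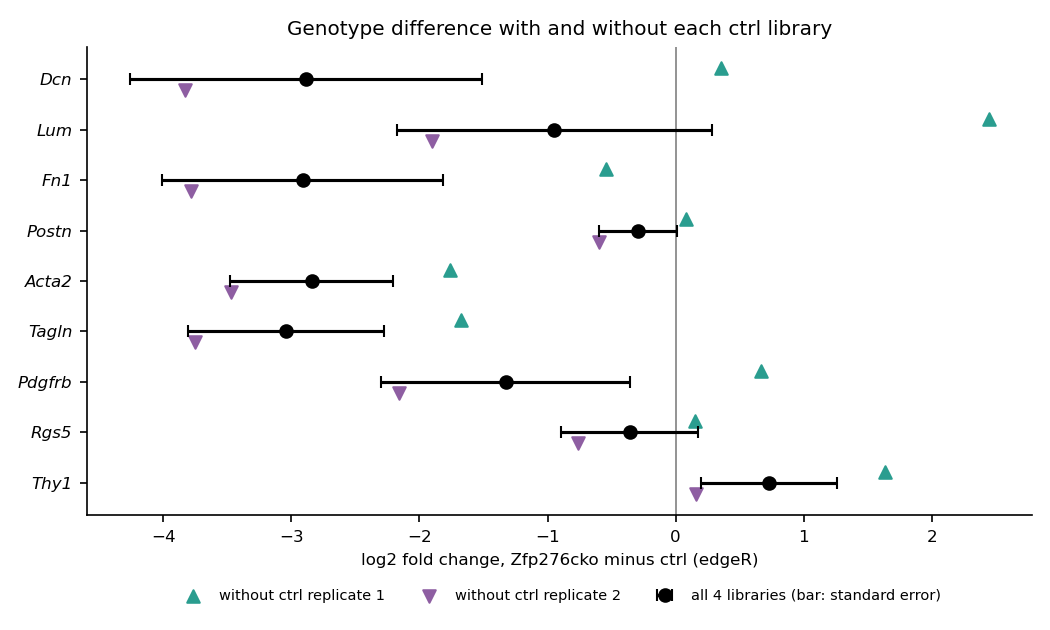
Log2 fold change (Zfp276cko minus ctrl) of the 9 tested genes from edgeR, with all 4 libraries (black, bars are standard errors) and without either ctrl library (triangles, no error drawn). Without ctrl replicate 1 the values of Dcn, Lum, Postn, Pdgfrb and Rgs5 are above 0, while Acta2 (−1.76), Tagln (−1.68) and Fn1 (−0.54) stay below it.

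TGF-beta is a known inducer of Acta2, Tagln, Fn1 and Postn, and its pathway was examined by a list of 23 genes, all of which were tested. The median log2 fold change was 0.03 (0.33 or −0.27 when ctrl replicate 1 or 2 was left out), with 0 called by edgeR in either direction. With an unadjusted p, 2 were lower and 2 higher (3.02% and 5.11% of all tested genes). In both Zfp276cko libraries 6 were under and 7 over the ctrl values (23.7% and 26.8%). The ligands Tgfb1, Tgfb2 and Tgfb3 had log2 fold changes of 0.53, 0.05 and 0.45, and the receptors Tgfbr1 and Tgfbr2 of 0.24 and 0.15 (adjusted p between 0.286 and 0.934); these 5 are named for their roles. Targets and matrix-bound regulators differed more. Ltbp2, which binds microfibrils, had 216 and 28.1 normalized counts for ctrl and 9.95 and 16.3 for Zfp276cko (log2 fold change −3.20, adjusted p = 0.302; DESeq2 0.0244). Ctgf and Cyr61, secreted matricellular proteins, had −2.10 and −1.69 (adjusted p = 0.461 and 0.286). Without ctrl replicate 1, Ctgf had a log2 fold change of 0.52 and Cyr61 of −0.76. DESeq2 called Ltbp2 and Cyr61 lower and Tgfbi, an adhesive matrix protein, higher. It called 2.27% lower and 3.02% higher of the genes to which it gave an adjusted p. Tgfbi had 2066 and 1025 normalized counts for ctrl and 3581 and 3507 for Zfp276cko (log2 fold change 1.20, adjusted p = 0.255 from edgeR). The 5 integrin subunits that bind fibronectin or periostin had log2 fold changes between −0.58 (Itgav) and 0.51 (Itga5), with 0 called by edgeR or DESeq2 in either direction, also with an unadjusted p; that of Itgb5 was −0.55 and that of Itgb3 0.46.

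Markers of other cell types also differed between the ctrl libraries, and their part in the differences above was not tested. The summed level of 10 microglia markers was 43752 normalized counts in ctrl replicate 1 and between 22371 and 31524 in the other libraries. Of these 10 genes, 7 were highest in ctrl replicate 1 (30.7% of all tested genes). Of 10 endothelial markers, 4 had at most 3 counts in every library, among them Cldn5 with 0 counts; the summed level was 1321 in ctrl replicate 1, 665 in ctrl replicate 2, and 1491 and 1362 in Zfp276cko cells. Most of this sum was Vwf. The 10 astrocyte markers summed to between 30085 and 35216. Neuronal markers were lowest in ctrl replicate 1, where 0 of the 10 tested were highest (30.7% of all tested genes). The 14 oligodendrocyte markers had a median log2 ratio of −0.21 between ctrl replicates 1 and 2, against 2.06 for the 9 tested fibroblast and mural cell genes, 1.25 for the other matrix genes and −0.0045 for all tested genes. It was 1.09 for endothelial, 1.03 for integrin, 0.95 for microglia and 0.94 for pericyte genes. For the TGF-beta list it was 0.55, for the other contractile genes 0.17 and for the OPC list 0.15. It was −0.23 for the mesenchymal and meningeal list, −0.50 for the PDGF list, −1.03 for astrocyte and −3.74 for neuronal markers.

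**Figure D3:**
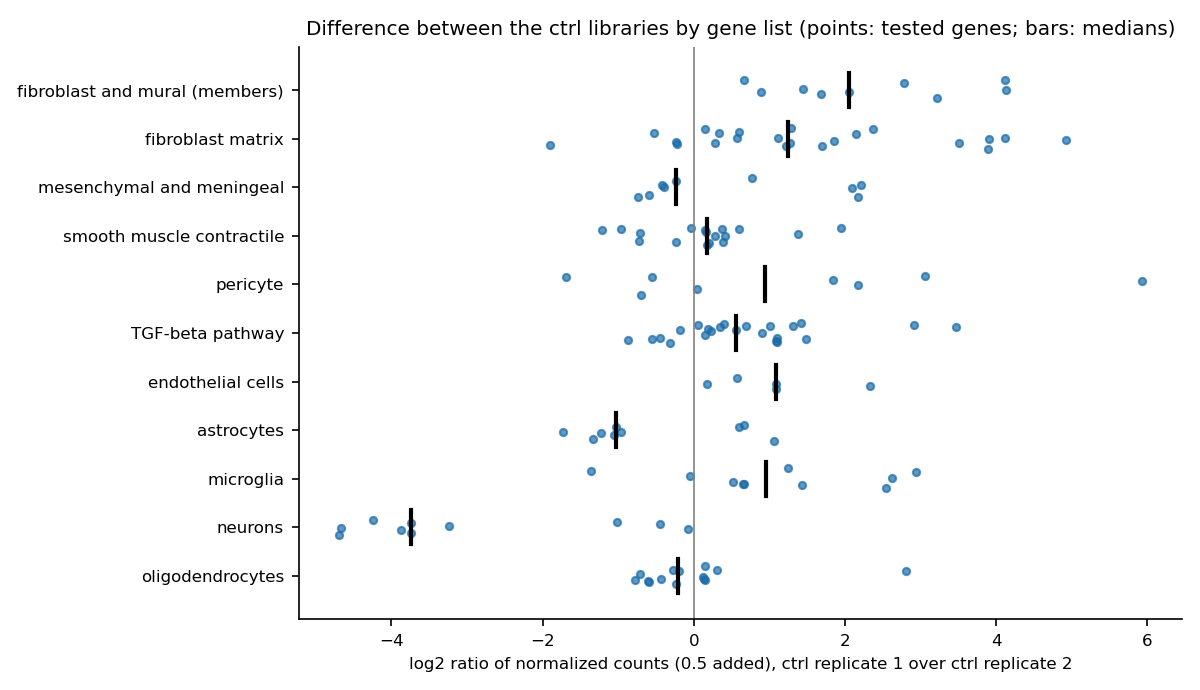
Log2 ratio of normalized counts in ctrl replicate 1 over ctrl replicate 2, with 0.5 added to each, for the tested genes of 11 lists; points are genes and bars medians. The medians are 2.06 for the fibroblast and mural cell genes, 1.25 for the other matrix genes and −3.74 for neuronal markers.

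Levels were compared between genes per length of the union of their exons (RPKM). In Zfp276cko cells Thy1 was the highest at 1.78 ± 0.0829 RPKM (SD, n = 2), followed by Acta2 (1.61 ± 0.143), Fn1 (1.58 ± 0.0535) and Tagln (1.30 ± 0.101). The ranges of Acta2 and Fn1 overlapped. Postn followed at 0.642 ± 0.0613, and then Pdgfrb, Lum and Rgs5 at 0.223, 0.220 and 0.211, whose ranges overlapped. Dcn had 0.115 ± 0.0042 and Twist1 at most 0.0235. The median tested gene had between 5.09 and 5.44 RPKM in the 4 libraries, so that all 10 genes were below it in Zfp276cko cells. In ctrl replicate 1, Fn1 (21.5), Acta2 (17.6) and Tagln (17.3) were above the median, and in ctrl replicate 2 Acta2 alone was (5.46). Within the ctrl genotype, the ranges of neighbours in the order of means overlapped throughout, except between Tagln (mean 10.7) and Thy1 (1.07).

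**Figure D4:**
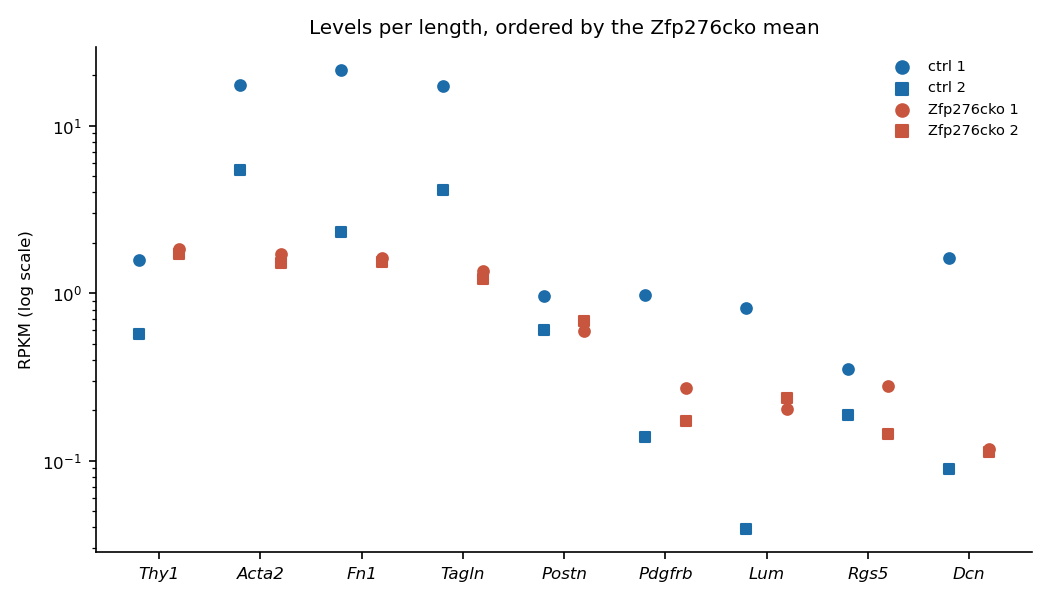
Level per exon length (RPKM, log scale) of 9 genes in each library, ordered by the Zfp276cko mean; circles are replicates 1 and squares replicates 2. Twist1 is left out because of values at 0. The Zfp276cko values lie between 0.112 and 1.84 RPKM, while ctrl replicate 1 reaches 21.5.

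For each tested gene, the genes with the most similar profile over the 4 libraries were sought among 14316 others, by the root mean square difference of their centred log2 CPM. With 4 libraries this is a description. Acta2 was nearest to the collagen genes Col6a3 (difference 0.27) and Col8a1 (0.32), and Tagln to Col6a3 (0.27) and Opalin (0.28). The order ctrl replicate 1, ctrl replicate 2, Zfp276cko held for all of these, with 116, 25.9, 12.7 and 9.45 normalized counts for Col6a3. Fn1 was nearest to Opalin (0.23) and Wnt4 (0.25). Opalin, a membrane protein of oligodendrocytes, had 1504 normalized counts in ctrl replicate 1, 215 in ctrl replicate 2, and 98.6 and 98.8 in Zfp276cko cells. A profile of this kind was therefore not restricted to genes of fibroblasts. Dcn was nearest to Mmp9 (0.17) and H2-M2 (0.19), and Lum to Spint1 (0.12) and Pcolce (0.16). Pdgfrb was nearest to 5930412G12Rik (0.06) and Gm28873 (0.12). Postn, which varied little, had its nearest profiles in Igip (0.01) and Cfl2 (0.02), Thy1 in P2ry2 (0.03) and Asah2 (0.04), and Rgs5 in Gm12166 (0.09) and Gm18180 (0.12).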

How the data were processed

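The authors mapped stranded single-end reads to mm10 with STAR and deposited raw counts of reads for each gene symbol. The paper's methods name HTSeq and Ensembl genes for the counting, while the submitters' processing notes name featureCounts 1.5.1 beside STAR 2.5.4a; the strand setting is not given in the sources used here. Here, genes were kept by filterByExpr of edgeR 4.0.16 (15766 genes), normalized with TMM (factors 0.935 to 1.04) and compared with the quasi-likelihood test, with genotype as the only term and Benjamini-Hochberg adjustment over all tested genes. Thresholds were those of the study's methods, but the test of the study was DESeq2, which is an alternative here. Standard errors are the log2 fold change divided by the square root of F. DESeq2 1.42.0 and limma 3.58.1 (voom), under R 4.3.3, other filters and size factors, a replicate block and leaving out each library were alternatives. RPKM values used TMM library sizes and exon lengths of GENCODE M21, whose positions are given. The procedure was also run on simulated data with a spread shared by both genotypes. With the pooled spread it called 77% of 200 genes with a log2 change of 2, and 15 unchanged genes. With the spread of the Zfp276cko libraries these values were 97.5% and 3. The ctrl libraries varied more in the real data, so that this run does not show how the test performs on them.

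The members and gene lists were chosen with earlier results of these data known. Named genes are the members, Zfp276, up to 4 genes of each list with the largest absolute log2 fold change and a mean of 20 or more normalized counts, list genes at the floor of 3 counts, and the 2 nearest profiles of each member. The lists of endothelial cells, astrocytes, microglia, neurons, oligodendrocytes and OPCs are given as sums or medians, apart from the genes named above. Others are marked as singled out. Promoters came from RefSeq. The independent preparations are the replicates. With 2 per genotype, p-values set the difference between genotypes against the spread between these preparations. That spread was estimated over both genotypes together, although the ctrl libraries varied more than the Zfp276cko libraries.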

Additional observations from a re-analysis of the deposited data

How the results depend on the processing

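edgeR called 0 genes in all and 0 of the members, and this held with the size factors of DESeq2, with at least 10 counts in every library, with limma voom and with a replicate block. Without a low-count filter it called 8 genes higher. DESeq2 called 338 genes lower and 449 higher, and an unadjusted p gave 476 and 806; both gave 2 members lower, Acta2 and Tagln. Leaving out each library gave between 0 and 1286 genes lower and 0 and 1792 higher, and between 0 and 6 members lower and 0 and 1 higher (Thy1). All of these calls came with a ctrl library left out (without ctrl replicate 1, 952 genes lower and 1689 higher, and of the members Acta2 and Tagln lower and Thy1 higher; without ctrl replicate 2, 6 members lower), where the lone ctrl library is assumed to vary like the Zfp276cko libraries. The members' median log2 fold change lay between −2.16 and 0.15 with a library left out. Against ctrl replicate 2 alone, a choice made after seeing the data, 3 members lay below and 4 above (42.6% and 44.4% of all tested genes). For ctrl replicate 1 alone the share of all tested genes was not determined, and no count is given.

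With a library left out, the sign changed for Dcn (−3.83 to 0.36), Lum (−1.90 to 2.45), Pdgfrb (−2.16 to 0.67), Postn (−0.60 to 0.082) and Rgs5 (−0.90 to 0.15), and it was kept for Acta2, Tagln, Fn1 and Thy1. For Lum it also changed under limma voom (0.21); the cause was not tested. With the replicate block the members' median was −0.85 and no call changed. The deviations of same-numbered libraries from their genotype means had a correlation of 0.0064. With 2 libraries per genotype, and Zfp276cko libraries that differed little, this cannot tell whether same-numbered preparations belong together. The number of libraries limits the precision, and low counts limit Lum, Rgs5 and Twist1.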
